A study of Mus musculus with 4 samples.

Results

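The Krüppel-like factors examined here are 7 genes, Klf2, Klf3, Klf4, Klf6, Klf7, Klf10 and Klf13, measured by sequencing of total RNA in blood monocytes (MON) and neutrophils (NEU) of the mouse. They were taken by gene symbol, and all 7 were found among the 43346 gene entries of each library. There were 2 MON libraries and 2 NEU libraries, all made from blood taken from adult C57BL6 animals, and the labels name no treatment or genetic change. According to the study, all its primary cell populations came from male mice. Blood was first separated on Ficoll. MON were described by the labels as Gr-1+ Mac-1+ cells sorted out of the mononuclear layer, whereas NEU were recovered from the pellet once red cells had been lysed, and no sort is named for them. A supplementary table of the study gives MON a Ly6g- CD11b+ gate and lists NEU as not sorted. Replicates in the study could be different groups of mice or separately handled aliquots from a sorter, and animals were pooled, so p-values measure only the spread between these libraries. MON is set over NEU in every fold change, and a negative log2 fold change means a higher level in NEU.

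Krüppel-like factors are transcription factors that end in C2H2 zinc fingers, each of which holds a zinc ion between a pair of cysteines and a pair of histidines. The fingers read GC-rich and CACCC-containing DNA, and the part of the protein ahead of the fingers decides whether the factor recruits activators or repressors. In white blood cells the family is known for roles in monocyte differentiation (Klf4), the resting state and trafficking of lymphocytes (Klf2), inflammatory gene expression in macrophages (Klf6) and the response to TGF-beta (Klf10).

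The zinc fingers are shown first because they are what the family shares and where reads of different members could be confused. A search of the translated GENCODE M21 coding sequences found 3 C2H2 fingers in each of the 7 proteins, in a stretch of 81 residues near the C-terminal end. The proteins are 289 (Klf13) to 483 (Klf4) residues long. Over the 81 residues, identity between members was 63.0% to 95.1% in 21 pairs, with a median of 75.3%. Klf6 and Klf7 were the most alike (95.1%), followed by Klf2 and Klf4 (91.4%), and Klf2 and Klf13 were the least alike (63.0%). The lines below give the coding strand of the second finger with the linker ahead of it, from the transcript of each gene with the longest coding sequence, and capitals mark the codons of the 2 cysteines and the 2 histidines.
Klf4: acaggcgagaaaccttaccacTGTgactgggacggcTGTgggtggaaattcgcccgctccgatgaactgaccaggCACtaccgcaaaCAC
Klf2: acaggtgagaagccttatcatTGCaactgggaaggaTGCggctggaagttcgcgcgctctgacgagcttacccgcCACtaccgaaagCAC
Klf3: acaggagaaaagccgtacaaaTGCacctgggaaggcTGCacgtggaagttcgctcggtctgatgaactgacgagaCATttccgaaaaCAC
Klf6: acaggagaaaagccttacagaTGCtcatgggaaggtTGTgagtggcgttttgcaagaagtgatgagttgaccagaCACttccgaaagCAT
Klf7: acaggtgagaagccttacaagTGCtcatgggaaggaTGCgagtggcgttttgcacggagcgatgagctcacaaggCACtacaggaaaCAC
Klf10: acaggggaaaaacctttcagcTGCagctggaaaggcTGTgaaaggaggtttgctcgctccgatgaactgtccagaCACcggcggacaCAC
Klf13: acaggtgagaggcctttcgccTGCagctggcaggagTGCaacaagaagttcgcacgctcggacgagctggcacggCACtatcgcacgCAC
The DNA that encodes the 3 fingers was 59.3% to 81.1% identical between members, with a median of 67.9%. That median was below the 75.3% of the protein, although Klf2 and Klf13 were more alike in DNA (64.2%) than in protein (63.0%). The longest run of bases shared by annotated transcripts of any 2 members was 36 bases, between Klf3 and Klf13. RSEM, the program that assigned the reads to genes, gave every member a posterior SD of the count of 0 in all 4 libraries, which means that its sampling found no uncertainty in assigning reads to these genes.

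The libraries held 25538433 to 26076261 expected counts in MON and 20549572 to 21634828 in NEU. Levels are given as CPM, the share of these totals scaled to 1000000 counts. The biological coefficient of variation, the spread between libraries of a group beyond counting noise, was 46.2% for the MON pair and 14.7% for the NEU pair over all genes. Of 14309 genes tested by edgeR at an adjusted p under 0.05, 20.8% were higher in MON and 21.8% were higher in NEU, and the median log2 fold change was -0.06. Defining markers of monocytes and neutrophils stood on the sides of their labels, with all 8 nonclassical monocyte markers higher in MON and 7 of 8 neutrophil markers higher in NEU, of which Ly6g was at 0 in both MON libraries. Retnlg was the exception, and of the classical monocyte markers 4 were higher in MON, 3 in NEU and 1 was not called. Neither group was free of other blood cells. All 9 NK cell markers were higher in MON (summed 2609 and 2616 CPM in MON, against 26.6 CPM in each NEU library), and all 8 B cell markers were higher in NEU (summed 315 and 400 CPM in MON, against 2464 and 2405 CPM in NEU). Of other cell types, 5 of 6 basophil markers and 1 of 3 tested eosinophil markers were higher in MON, and 3 of 6 platelet and 4 of 6 red cell markers were higher in NEU. In such bulk samples, fewer cells of a type and less RNA per cell cannot be told apart.

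All 7 members passed the filter on low counts. Klf4, Klf10 and Klf13 were higher in MON (3 of 7, against 20.8% of all tested genes), Klf2, Klf3 and Klf7 were higher in NEU (3 of 7, against 21.8%), and Klf6 was not called. These 7 members, chosen with earlier results of these data known, thus differed between MON and NEU gene by gene rather than in 1 direction. The call of Klf13 did not hold per length, as described below. The CPM of the 7 genes summed to 1773 and 1706 in MON and to 1737 and 1709 in NEU. The CPM sums of the 2 groups overlapped, whereas the sums per length given below did not.

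**Figure D1:**
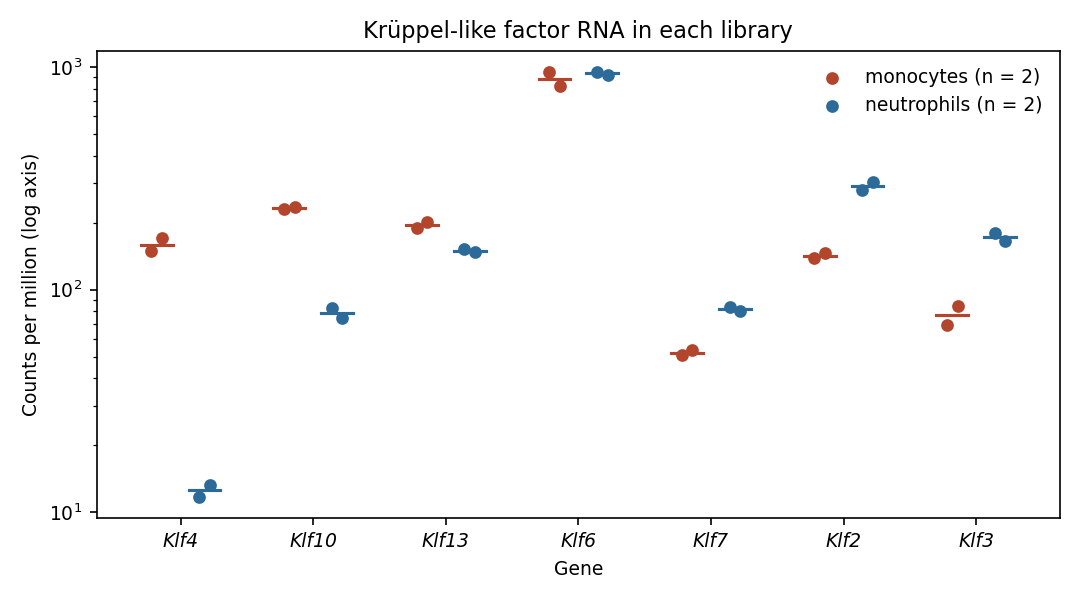
Level (CPM) of each Krüppel-like factor gene (log axis) in the 2 MON and the 2 NEU libraries, with points for libraries and bars for means, ordered by fold change. Klf4 is separated most, at 148 and 170 CPM in MON and 11.7 and 13.3 CPM in NEU, and the groups of Klf6 overlap.

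Klf4, which drives monocyte differentiation and is also known as a reprogramming factor, had the largest difference among the members. The gene (ENSMUSG00000003032.8) lies on the minus strand of chromosome 4, from 55527143 to 55532466 in mm10. Its level was 148 and 170 CPM in the MON libraries and 11.7 and 13.3 CPM in the NEU libraries. Both MON libraries were far above both NEU libraries, and the NEU level still rested on 254 and 273 counts. The log2 fold change was 3.67 ± 0.14 (SE), or 12.7-fold, with an adjusted p of 4.34e-05 and a 95% interval of 3.32 to 4.01. Klf4 stood above 97.1% of all tested genes in log2 fold change. In TPM, a level per transcript length, Klf4 was 12.2 and 12.7 in MON and 0.99 and 0.98 in NEU, and the 95% credibility intervals that RSEM gave were 11.7 to 12.5 and 12.2 to 12.96 in MON, against 0.87 to 1.19 and 0.88 to 1.15 in NEU.

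Klf10, a repressor first described as an early gene of the TGF-beta response, was the other member with a marked MON excess. It (ENSMUSG00000037465.9) is found on the minus strand of chromosome 15, from 38291463 to 38300706. Klf10 had 230 and 234 CPM in MON and 82.4 and 74.5 CPM in NEU. The 2 MON libraries were nearly equal and lay well above NEU, and the log2 fold change of 1.56 ± 0.09 corresponded to 2.96-fold (adjusted p = 0.00016). The NK cell markers that were higher in MON had a median log2 fold change of 6.72, none of them was at 0 in a NEU library, and their part in the MON levels of Klf4 and Klf10 was not tested.

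Klf13, known as a late activator of Ccl5 in T lymphocytes, was called higher in MON by a small margin. The gene (ENSMUSG00000052040.9) lies on the minus strand of chromosome 7, from 63886351 to 63938915. It had 189 and 200 CPM in MON and 152 and 147 CPM in NEU, which did not overlap. The log2 fold change was 0.38 ± 0.08, or 1.30-fold, with an adjusted p of 0.015. The call held for the number of reads and not for the level per length. RSEM assigned the Klf13 reads of MON to longer transcripts, with a mean length of 4126 and 4088 bases in MON and 3002 and 3367 bases in NEU, a difference of 922 bases between the means. Klf13 reached 47.9 and 51.1 CPM per kilobase of effective length in MON and 53.4 and 45.9 in NEU. These overlapped, and the ratio of the means was 0.996. With effective length as an offset in the edgeR fit, the log2 fold change was -0.01 (adjusted p = 0.976). The call was also lost without NEU replicate 1 (adjusted p = 0.134) or without NEU replicate 2 (adjusted p = 0.17), with log2 fold changes of 0.38 and 0.34, in fits that take their spread from the more variable MON pair alone.

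The length of Klf13 depends on which of its 4 annotated transcripts the reads are given to. In GENCODE M21 the longest has 6396 bases, 2 further coding transcripts have 599 and 487 bases, and a transcript with a retained intron has 934 bases. Klf7, with transcripts of 7662, 1477 and 553 bases, had mean lengths of 5931 and 7662 bases in MON and 6373 and 6215 bases in NEU. Its 2 MON libraries lay on either side of NEU. RSEM used another version than M21 for the longest Klf13 transcript and for the Klf7 transcripts of 7662 and 1477 bases. The lengths of these transcripts in RSEM may therefore differ from those given. Klf4 differed little, with 2999 and 2994 bases in MON and 2810 and 3029 bases in NEU, as did Klf3, with 2238 and 2217 bases in MON and 2140 and 2205 bases in NEU. Klf2, Klf6 and Klf10 have a single transcript in the files, so their length could not vary.

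**Figure D2:**
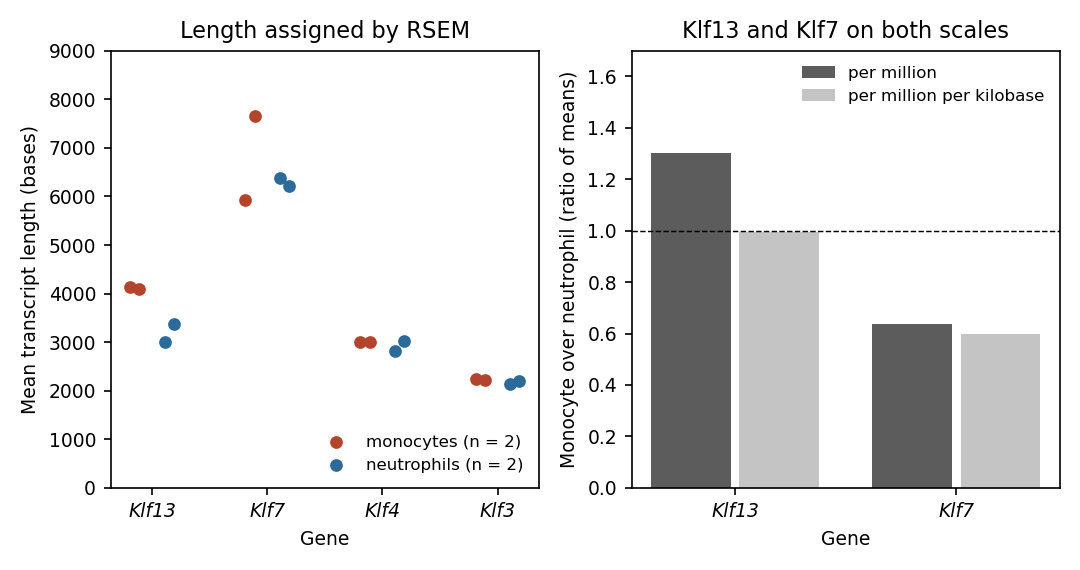
Left, mean transcript length (bases) that RSEM assigned to the 4 members with more than 1 transcript, with a point per library. Right, ratio of the MON to the NEU mean for Klf13 and Klf7 in CPM and in CPM per kilobase, with a dashed line at 1. Klf13 was 1.30 on the first scale and 0.996 on the second, and Klf7 stayed below 1 on both (0.636 and 0.597).

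Klf6, an activator induced early in inflammation, was the most abundant member and did not separate MON from NEU. The gene (ENSMUSG00000000078.6) lies on the plus strand of chromosome 13, from 5861482 to 5870394. It had 947 and 818 CPM in MON and 950 and 925 CPM in NEU, so that MON replicate 1 fell between the NEU libraries and MON replicate 2 fell below them. The log2 fold change was -0.09 ± 0.09 (adjusted p = 0.489), with a 95% interval of -0.32 to 0.14. Without MON replicate 1 the log2 fold change was -0.21, with an adjusted p of 0.0471, but that fit sets a single MON library against NEU and takes its spread from the tighter NEU pair alone.

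Klf2, which maintains the resting state of lymphocytes and restrains inflammatory genes in myeloid cells, was higher in NEU. The gene (ENSMUSG00000055148.7) is on the plus strand of chromosome 8, from 72319033 to 72321656. Its level was 138 and 146 CPM in MON and 279 and 303 CPM in NEU. The log2 fold change was -1.04 ± 0.09 (adjusted p = 0.000591), or 2.05-fold in favour of NEU. Klf2 and Klf4, whose fingers were 91.4% identical, therefore lay on opposite sides. The level of Klf2 per kilobase was 1.57 and 1.45 times that of Klf4 in the MON libraries and 37.4 and 38.8 times that of Klf4 in the NEU libraries.

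Klf3, a repressor that recruits the corepressor CtBP, had the largest NEU excess of the 7 genes. The gene (ENSMUSG00000029178.10) lies on the plus strand of chromosome 5, from 64803388 to 64832901. Its level was 69.3 and 84.4 CPM in MON and 179 and 166 CPM in NEU, with no overlap. The log2 fold change was -1.17 ± 0.12 (adjusted p = 0.00121), or 2.24-fold in favour of NEU.

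Klf7, the member closest to Klf6 in its fingers and studied mostly in neurons, was also higher in NEU. The gene (ENSMUSG00000025959.9) is on the minus strand of chromosome 1, from 64029447 to 64122282. It had 50.6 and 53.3 CPM in MON and 83.4 and 80.0 CPM in NEU. The log2 fold change was -0.65 ± 0.10 (adjusted p = 0.00504), or 1.57-fold in favour of NEU, and the call was lost when limma was run on log2(TPM + 1), at -0.50 (adjusted p = 0.0597). The opposite strand of Klf7 carries the long noncoding RNA Gm26649, which had 4 and 71 counts in MON and 38 and 13 counts in NEU, against 1319 and 1361 counts of Klf7 in MON and 1804 and 1644 in NEU. The sources used here do not state whether reads were counted by strand. The counts of Gm26649 were small beside those of Klf7.

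The 3 members that were higher in NEU stood in libraries that also had more RNA of B cells, which are known to express Klf2 and Klf3. The B cell markers had a median log2 fold change of -3.26, and none of the 8 was at 0 in any library. Cd79a, a chain of the B cell receptor complex, had 20.3 and 27.0 CPM in MON and 242 and 235 CPM in NEU, and Pax5, the factor that commits cells to the B lineage, had 3.68 and 7.44 CPM in MON and 124 and 116 CPM in NEU (Cd79a was named after its value was seen). The part of B cells in the NEU levels of Klf2, Klf3 and Klf7 was not tested. T cell markers summed to 111 and 129 CPM in MON and to 144 and 152 CPM in NEU, with 2 of 9 higher in MON and 6 higher in NEU.

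Levels of different genes were compared per kilobase of effective length. The order in MON was Klf6 (218 ± 23.1 CPM per kilobase, SD, n = 2), Klf2 (84.7 ± 2.79), Klf10 (80.7 ± 0.795), Klf4 (56.3 ± 5.20), Klf13 (49.5 ± 2.22), Klf3 (37.3 ± 5.27) and Klf7 (7.95 ± 1.19). The order in NEU was Klf6 (231 ± 4.68 CPM per kilobase), Klf2 (173 ± 9.72), Klf3 (85.8 ± 6.65), Klf13 (49.7 ± 5.29), Klf10 (27.2 ± 1.98), Klf7 (13.3 ± 0.157) and Klf4 (4.53 ± 0.134). Klf6 and Klf2 headed the order in both cell types, and below them Klf4 moved to the last place in NEU while Klf3 moved up. The order was the same in both libraries of a group, and no neighbours in it overlapped, although Klf2 and Klf10 in MON were close, at 82.7 and 86.6 CPM per kilobase for Klf2 and 80.1 and 81.3 for Klf10.

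As a share of the summed level per kilobase, Klf6 made up 43.4% and 38.1% in MON and 39.7% and 39.4% in NEU. Klf2 held 15.3% and 16.4% in MON and 28.1% and 31.1% in NEU. Klf4 held 9.74% and 11.3% in MON and 0.751% and 0.800% in NEU, and Klf10 held 14.8% and 15.4% in MON and 4.84% and 4.46% in NEU. The sum itself was 540 and 529 CPM per kilobase in MON and 591 and 578 CPM per kilobase in NEU. Both NEU sums were above both MON sums, and the makeup differed far more than the size.

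**Figure D3:**
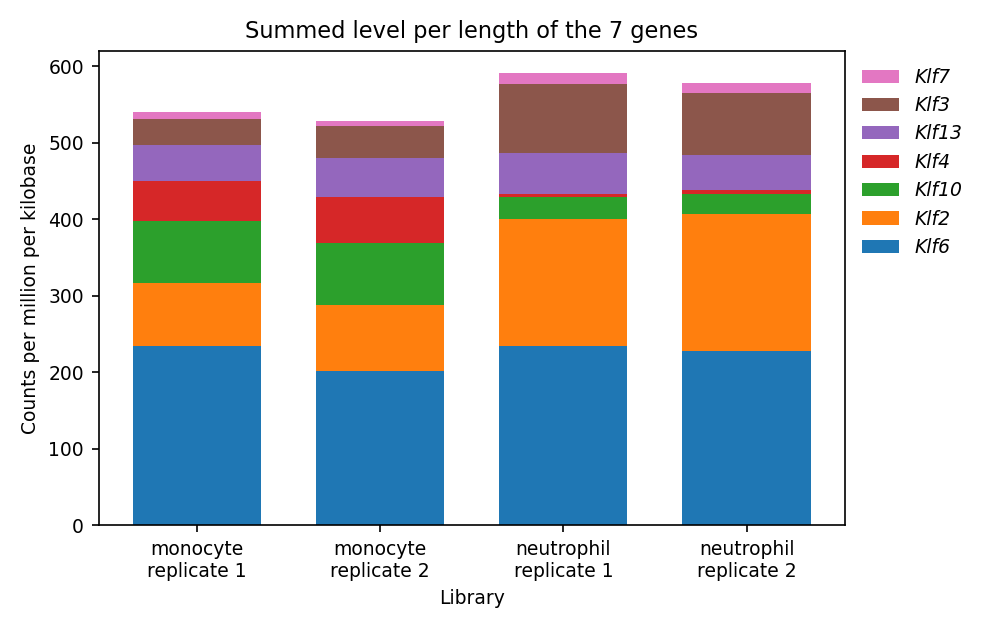
Level (CPM per kilobase) of the 7 genes, stacked for each library, with the MON libraries left and the NEU libraries right. The stacks reach 540 and 529 in MON and 591 and 578 in NEU, and the Klf4 and Klf10 layers are thick in MON while the Klf2 and Klf3 layers are thick in NEU.

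For each member the gene with the most similar profile was sought among 8089 genes, by the root mean square difference of centred log2 CPM over the 4 libraries. These were Ctsb, a lysosomal protease, for Klf4 (0.0552), Ugcg, a glucosylceramide synthase, for Klf10 (0.0305) and Mtrex, an RNA helicase of the nuclear exosome, for Klf13 (0.0101). Pik3cb, a phosphoinositide kinase subunit, came closest to Klf6 (0.0065). The genes nearest to the NEU-high members were Ints4, a subunit of the Integrator complex, for Klf2 (0.0244), Pde1b, a phosphodiesterase, for Klf3 (0.0144) and Cpsf6, a factor of mRNA 3′ end processing, for Klf7 (0.0078). With 4 libraries in 2 groups, such a likeness rests mainly on the size of the group difference.

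The other KLF genes and the related SP factors, which bind GC boxes through the same kind of fingers, were listed as 19 further genes, and 10 of them had enough counts to be tested. Of these, 2 were higher in MON (against 20.8% of all tested genes), 2 were higher in NEU (against 21.8%) and 6 were not called. The median log2 fold change was -0.28. Sp1, a widely expressed activator, had 227 and 243 CPM in MON and 302 and 286 CPM in NEU (log2 fold change -0.32 ± 0.08, adjusted p = 0.026). Klf9, Klf11 and Sp4 fell outside the naming rule and were picked with their values known. Klf9, which is known as a target of glucocorticoids, reached 29.7 and 31.0 CPM in MON and 3.56 and 5.16 CPM in NEU (2.80 ± 0.25, adjusted p = 0.00064). Klf11, the closest relative of Klf10, had 62.9 and 54.5 CPM in MON and 42.0 and 40.2 CPM in NEU (0.51 ± 0.13, adjusted p = 0.0232). Sp4 was 42.2 and 54.5 CPM in MON and 97.7 and 94.6 CPM in NEU (-0.99 ± 0.15, adjusted p = 0.00422). The 9 genes that were not tested had 0 counts in both MON libraries. Among those tested, the calls fell to 1 in each direction with the effective length offset and with limma on log2(TPM + 1).

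**Figure D4:**
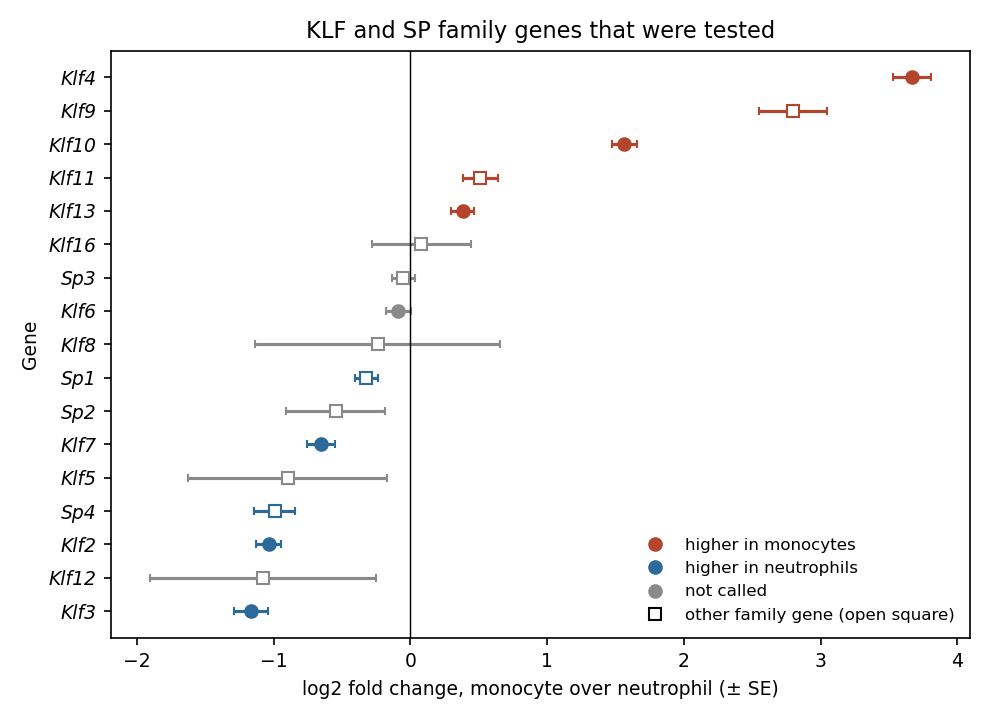
Log2 fold change (MON over NEU, ± SE) of the 17 KLF and SP genes that were tested, with filled circles for the 7 members, open squares for other family genes and colours for the call. Klf4 (3.67) and Klf9 (2.80) lie furthest to the MON side and Klf3 (-1.17) furthest to the NEU side.

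Klf2 and Klf4 are both known as targets of the MEK5-ERK5 kinase pathway, which acts through the MEF2 factors, and class II histone deacetylases hold MEF2 in check. Of 10 pathway genes, all tested, 1 was higher in MON (against 20.8% of all tested genes) and 4 were higher in NEU (against 21.8%). The other 5 were not called, and the median log2 fold change was -0.34. Mef2a had 394 and 438 CPM in MON and 152 and 143 CPM in NEU (1.49 ± 0.09, adjusted p = 0.000198), whereas Mef2c had 226 and 234 CPM in MON and 416 and 382 CPM in NEU (-0.80 ± 0.08, adjusted p = 0.00108). Mef2d was not called, and a link of the MEF2 genes to the levels of Klf2 and Klf4 was not tested. Of the kinases ahead of ERK5 in the list, Map3k3 was higher in NEU (-0.41 ± 0.12, adjusted p = 0.0422). Map3k2 (0.04 ± 0.15, adjusted p = 0.855) and Map2k5 (-0.51 ± 0.20, adjusted p = 0.0879) were not called. Mapk7, which encodes ERK5, was low and not called, with 12.3 and 23.5 CPM in MON and 15.3 and 13.1 CPM in NEU. Hdac7 (-1.88 ± 0.16) and Hdac4 (-1.65 ± 0.12), named after their values were seen, were higher in NEU.

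The promoters of Klf2 and Klf4 are given because these relatives lay on opposite sides while sharing this upstream pathway. Each window runs from 250 bases before to 50 bases after the RefSeq start, on the strand of the gene, in the build GRCm38.p6. The Klf2 window is chr8:72318812-72319111 and the Klf4 window is chr4:55532426-55532725, and capitals mark the GC box CCGCCC on either strand and the MEF2 motif.
Klf2: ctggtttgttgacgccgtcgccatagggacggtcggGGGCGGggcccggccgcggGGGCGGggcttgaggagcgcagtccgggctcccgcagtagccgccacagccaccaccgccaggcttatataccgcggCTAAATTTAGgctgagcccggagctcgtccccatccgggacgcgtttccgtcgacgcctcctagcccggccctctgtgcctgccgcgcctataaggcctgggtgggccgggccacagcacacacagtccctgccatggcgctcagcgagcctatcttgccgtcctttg
Klf4: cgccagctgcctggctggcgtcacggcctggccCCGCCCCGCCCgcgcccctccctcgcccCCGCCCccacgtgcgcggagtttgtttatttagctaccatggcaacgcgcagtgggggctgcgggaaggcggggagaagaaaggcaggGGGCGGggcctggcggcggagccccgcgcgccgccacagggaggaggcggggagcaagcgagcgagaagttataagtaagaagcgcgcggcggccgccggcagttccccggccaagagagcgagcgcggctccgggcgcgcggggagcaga
The Klf2 window held 1 MEF2 match, at -118 from the start, and 2 GC boxes. The Klf4 window held 4 GC boxes, of which 2 overlap by 1 base, and no MEF2 match. Promoters were matched for 6 of the 7 genes, and Klf2 was the only one of the 6 with a MEF2 match, which 3.19% of all 32851 promoter windows of this length hold. The GC box was in all 6 windows and in 35.7% of all windows. The CACCC letters were found 5 times in Klf3, 3 times in Klf7, once each in Klf2 and Klf13 and not in Klf4 or Klf6, and 57.5% of all windows hold them. The windows were rich in G and C, at 58.3% (Klf7) to 76.7% (Klf3), against a median of 52.7% over all windows, and neither the cyclic AMP element TGACGTCA nor the SRF motif was found in them. The search was over both strands, and a match describes letters in the window only.

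TGF-beta signalling, which induces Klf10 through the SMAD factors, was read from 7 genes. Tgfbr1, the type I receptor, had 546 and 525 CPM in MON and 102 and 107 CPM in NEU (2.35 ± 0.08, adjusted p = 4.02e-05), and Smad3, a receptor-activated SMAD, had 112 and 123 CPM in MON and 47.7 and 42.5 CPM in NEU (1.38 ± 0.11, adjusted p = 0.000487). Both lay on the side of Klf10, as every gene higher in MON did, and a link to the level of Klf10 was not tested. The type II receptor Tgfbr2 lay on the other side, with 220 and 230 CPM in MON and 295 and 280 CPM in NEU (-0.35 ± 0.08, adjusted p = 0.0166), as did the inhibitor Smad7 (-1.40 ± 0.22, adjusted p = 0.00497, named after its value was seen). Tgfb1, Smad2 and Smad4 were not called, and the median of the list was -0.11.

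The cofactors of the family were listed as 16 genes. Of these, 4 were higher in MON (against 20.8% of all tested genes), 2 were higher in NEU (against 21.8%) and 10 were not called. The median log2 fold change was -0.05. Sap30, a subunit of the Sin3 repressor complex that Klf10 and Klf13 recruit, had 63.1 and 65.6 CPM in MON and 15.2 and 18.6 CPM in NEU (1.93 ± 0.16, adjusted p = 0.00047), and Rbbp7 of the same complex was also higher in MON (0.96 ± 0.24, adjusted p = 0.0253). The scaffold Sin3a was 107 and 138 CPM in MON and 130 and 140 CPM in NEU and was not called. Of the 4 lysine acetyltransferases in the list, Kat2a and Kat2b were not called, and the coactivators Ep300 and Crebbp were higher in NEU, Ep300 at 121 CPM in each MON library, against 309 and 290 CPM in NEU (-1.31 ± 0.08, adjusted p = 0.000182), and Crebbp at 126 and 133 CPM in MON, against 245 and 232 CPM in NEU (-0.89 ± 0.08, adjusted p = 0.000759). Of the CtBP genes, through which Klf3 represses, Ctbp1 was not called and Ctbp2 was higher in MON (1.78 ± 0.19, adjusted p = 0.0011, named after its value was seen), on the side opposite to Klf3. Among 7 ubiquitin ligases of KLF proteins, 6 were not called, against 57.4% of all tested genes. Wwp1, which acts on Klf2, was the 1 called, with 38.8 and 45.6 CPM in MON and 28.9 and 24.4 CPM in NEU (0.66 ± 0.16, adjusted p = 0.0219, named after its value was seen).

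Of 12 genes reported elsewhere as targets of these factors, 9 were tested and all 9 were called. They split into 5 higher in MON (against 20.8% of all tested genes) and 4 higher in NEU (against 21.8%). The list was chosen with earlier results of these data known, so these counts cannot measure an enrichment of targets. The median log2 fold change was 0.87. Ccl5, a chemokine activated by Klf13, had 134 and 133 CPM in MON and 2.31 and 2.09 CPM in NEU (5.92 ± 0.13, adjusted p = 2.17e-05). Ccl5 is also a product of NK cells, whose 9 markers were all higher in MON, and their part in this level was not tested. Thbd, the thrombomodulin gene activated by Klf2 and Klf4 in endothelium, had 130 and 160 CPM in MON and 23.9 and 25.1 CPM in NEU (2.57 ± 0.14, adjusted p = 0.00014). Thbd lay on the side of Klf4 and not on that of Klf2, and its control by either factor was not tested. Cd14, from the same list, lay on the side opposite to Klf4, with 2.11 and 8.38 CPM in MON and 21.5 and 22.7 CPM in NEU. The log2 fold change of Cd14 was -2.08 ± 0.61 (adjusted p = 0.0398, named after its value was seen).

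The targets of Klf2 in lymphocyte trafficking were not on a single side, and the sign of its reported effect on each was not considered here. S1pr1, the sphingosine phosphate receptor used for exit from lymphoid tissue, was higher in NEU (-1.56 ± 0.14, adjusted p = 0.000641, named after its value was seen). Itgb7, an integrin subunit used for homing to the gut, was higher in MON (0.87 ± 0.13, adjusted p = 0.00429, named after its value was seen). Cxcr5, a chemokine receptor of B cells, had 19.3 and 25.2 CPM in MON and 193 and 210 CPM in NEU (-3.18 ± 0.16, adjusted p = 0.000108), within the range of the B cell markers, and the part of B cells in its level was not tested.

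**Figure D5:**
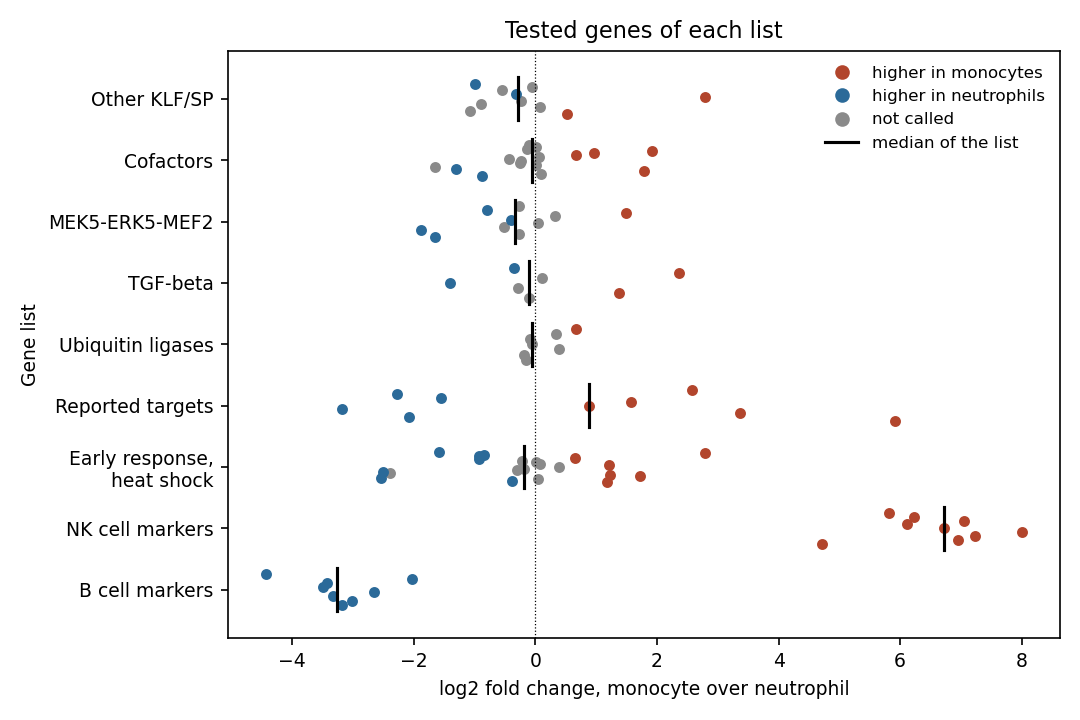
Log2 fold change (MON over NEU) of the tested genes of each list, with a point per gene coloured by its call and a black bar at the median of the list. Other family genes, cofactors, pathway genes and ligases centre near 0 (medians from -0.34 to -0.05), while NK cell markers (median 6.72) and B cell markers (median -3.26) lie apart on opposite sides.

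Several Krüppel-like factors, Klf2, Klf4, Klf6 and Klf10 among them, belong to the genes that respond within minutes to stimulation and can change while cells are handled. The immediate early and heat shock genes were therefore counted beside them. Of 21, 6 were higher in MON (against 20.8% of all tested genes) and 7 were higher in NEU (against 21.8%). The other 8 were not called, and the median log2 fold change was -0.20. Nr4a1, also a factor of nonclassical monocytes, had 666 and 638 CPM in MON and 92.4 and 96.9 CPM in NEU (2.78 ± 0.08, adjusted p = 2.88e-05), and Atf3 had 166 and 170 CPM in MON and 75.9 and 72.2 CPM in NEU (1.18 ± 0.09, adjusted p = 0.00035). Fos had 186 and 115 CPM in MON and 845 and 856 CPM in NEU (-2.50 ± 0.23, adjusted p = 0.000697), and Dusp1, a phosphatase of MAP kinases, had 134 and 102 CPM in MON and 688 and 684 CPM in NEU (-2.54 ± 0.14, adjusted p = 0.00015). The summed CPM of the list was 3067 and 2871 in MON and 4412 and 4533 in NEU. The part of cell handling in the levels of the members was not tested.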

How the data were processed

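Total RNA of 2 monocyte and 2 neutrophil libraries was analysed, grouped by the labels. According to the labels, RNA was extracted with TRIzol, depleted of ribosomal RNA and made into stranded random-primed libraries without molecular identifiers, so the credibility intervals of TPM cover read counting and assignment only, whereas intervals of fold changes come from the edgeR fit and include the spread between libraries. The authors aligned reads to mm10 with STAR and deposited RSEM expected counts (estimated read numbers per gene) and TPM. Lengths and posterior SDs are RSEM's own. The members and lists were chosen with earlier results of these data known.

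Of 69690 entries, the 43346 with a gene identifier were kept; 98.0% matched GENCODE M21 by identifier, which gave names and coordinates. Expected counts were rounded, filtered with filterByExpr, scaled by TMM and tested with the edgeR 4.0.16 quasi-likelihood F test (R 4.3.3), with Benjamini-Hochberg adjustment over 14309 genes and a threshold of 0.05. CPM uses the total over gene entries, and CPM per kilobase divides it by effective length. The mean of 2 libraries is given ± SD.

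All 7 members were named, and from each list up to 2 called genes per direction, ranked by fold change, whose TPM was 5 or more in each library of the group where they were higher; the most similar gene to each member had a mean CPM of at least 10 (prior count 2). Alternatives were DESeq2 (1.42.0) size factors and test, library size alone, no filter, 10 CPM in 2 libraries, limma (3.58.1) on log2(TPM + 1) and log2(TPM + 0.1) at a TPM of at least 1, an effective length offset, posterior mean counts, leaving out mitochondrial and the 10 top genes, protein coding genes alone and leaving out each library. A gene that the naming rule takes is not reported here.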

Additional observations from a re-analysis of the deposited data

How the results depend on the processing

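In all 15 alternatives Klf2 (log2 fold change -1.12 to -0.96), Klf3 (-1.34 to -1.04), Klf4 (2.76 to 3.75) and Klf10 (1.45 to 1.62) kept their direction and their call. Klf7 lost its call with limma on log2(TPM + 1) (-0.50, adjusted p = 0.0597) and on log2(TPM + 0.1) (-0.69, adjusted p = 0.0672), and ran from -0.71 to -0.63 when 1 library was left out. Klf13 was 0.0227 (adjusted p = 0.915) and 0.0252 (adjusted p = 0.911) in these fits and reversed to -0.0059 (adjusted p = 0.976) with the effective length offset, as these scales divide by its longer length in MON. When 1 library was left out, Klf13 ran from 0.32 to 0.41, and its call was lost without neutrophil replicate 1 (0.38, adjusted p = 0.134) and without neutrophil replicate 2 (0.34, adjusted p = 0.17). Klf6 ran from -0.21 to -0.0076 when 1 library was left out and crossed the threshold without monocyte replicate 1 (-0.21, adjusted p = 0.0471). In each fit with a library left out, the spread came from the complete pair alone (46.2% for the monocyte pair, 14.7% for the neutrophil pair), and the lone library was assumed to vary as that pair did, so calls in fits with 1 monocyte library rest on the tighter neutrophil pair. Genes called higher in neutrophils numbered 3118, against 1801 with limma on log2(TPM + 1), 1688 on log2(TPM + 0.1), 1810 without neutrophil replicate 1, 1913 without neutrophil replicate 2 and 4675 without monocyte replicate 2. Of 510 counts of called list genes under the alternatives, 40 moved by over 1.5 times. With the effective length offset and in both limma fits, Retnlg and Wwp1 lost their calls. In the same fits the calls of other KLF and SP genes fell from 2 to 1 in each direction. With no filter 21031 genes were tested and the median of all genes was -0.32, against -0.06. No paired analysis was possible because replicate numbers follow the order of deposit. With 2 libraries per group, the 95% interval of Klf6 still held differences of -0.32 to 0.14.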
